A study of Homo sapiens with 34 samples.

Results

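Untreated SNU398 cells were compared with untreated SNU475 cells on 4 of the 34 Illumina expression arrays of the series, 2 arrays titled SNU398_D0 and 2 titled SNU475_D0. Both are established hepatocellular carcinoma lines obtained from ATCC. All 4 arrays carry total RNA of cells sampled before any SGI-110, a drug that inhibits DNA methyltransferases, and neither group received another agent. Later arrays of the series follow the lines after 3 daily doses of 100 nM SGI-110, and untreated HepG2, another liver cancer line, gives 2 further arrays that are used here as a point of reference. Each group is 1 cell line, so a difference between the groups belongs to these lines and not to a class of tumours. Nothing in the labels tells whether a line's 2 arrays stem from separate cultures, and p-values then measure only the spread between arrays, which may be technical. The comparison asks how the lines differed before treatment began.

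Liver cancer lines range from hepatocyte-like lines, which secrete albumin and alpha-fetoprotein, to poorly differentiated lines, which carry the intermediate filament protein vimentin and little hepatocyte product. SNU398 and SNU475 both belong to the second kind. Several pathways are often switched on or off in such tumours: WNT signalling through beta-catenin, which the AXIN proteins restrain, the oxidative stress factor NRF2, which KEAP1 restrains, and the YAP and TGF-beta programmes that drive matrix and contractile genes.

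The 2 groups do not lie on the same deposited scale. Deposited medians were 182.915 to 183.005 for the set of 12 arrays that holds untreated SNU398 and 172.652 to 172.731 for the set of 12 that holds untreated SNU475, so all 34 arrays were normalised together. Any difference between the deposited sets that this did not remove cannot be told apart from the lines. SNU398 arrays from day 3 on lie in the set of untreated SNU475. For SNU398 the deposited set and the treatment therefore cannot be told apart. The day 3 arrays of both lines, taken after treatment, lie in 1 deposited set, and the difference between the lines there is given below beside the untreated one. Levels are log2 intensities, comparable between arrays for 1 probe and not between probes. A gene counted as above background in a line where both arrays exceeded 6.97. Differences are SNU398 minus SNU475 with the standard error of the limma fit.

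Both lines carried vimentin, and 16 of 29 tested plasma protein genes of the hepatocyte were above background in neither. VIM read 15.16 and 14.79 in SNU398 and 15.01 and 15.15 in SNU475. The arrays overlapped, and the difference of -0.11 ± 0.13 did not pass the test (limma, adjusted p = 0.496). At day 3 it was 0.34 and was called (adjusted p = 0.0208). ALB, serum albumin, read 9.03 and 9.33 against 8.36 and 8.48, while HepG2 averaged 15.7. AFP, alpha-fetoprotein, was not above background in SNU398 (6.77 and 6.33) and was dim in SNU475 (8.74 and 8.77), at least 3.44-fold higher there. The junction protein E-cadherin (CDH1) was low in both, averaging 8.44 in SNU398 and 9.08 in SNU475, with a difference of -0.64 ± 0.15. N-cadherin (CDH2) was high in both, 12.06 and 12.35 against 14.58 and 14.49, a 5.01-fold excess in SNU475. The vimentin-high state the lines share thus came with unequal levels of both cadherins.

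Beyond that shared state the lines differed widely. Of 15297 genes tested, 9189 were called at an adjusted p under 0.05 (limma, Benjamini-Hochberg), which is 60.1% of them. SNU398 was higher for 4794 genes (31.3%) and SNU475 for 4395 (28.7%). Calls of at least 2-fold numbered 3917 (25.6%), 1923 higher in SNU398 (12.6%) and 1994 higher in SNU475 (13.0%). The extremes were uneven: sizes of 16-fold or more were found for 53 genes higher in SNU398 and 145 higher in SNU475. The direction shares depended on the scaling, since 52.2% of the calls were higher in SNU398 after quantile normalisation and 45.0% after median scaling. Because most genes were called, counts of list members are read against 60.1% and, for 2-fold calls, against 25.6%. Above background in both lines were 10325 genes, in SNU398 alone 1240, in SNU475 alone 1466 and in neither 2266. Of the genes called, 324 were above background in neither line, and list counts can include such genes. Where 1 line was not above background, the excess of the other is a bound, written "at least N-fold", taken against the dim line's own mean or the threshold, whichever is higher. Across tested genes the arrays of a line correlated at 0.995 in each line and the line means at 0.829, while each correlated with HepG2 at 0.802 (SNU398) and 0.811 (SNU475). These correlations are across genes, which share arrays and are not independent replicates.

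**Figure D1:**
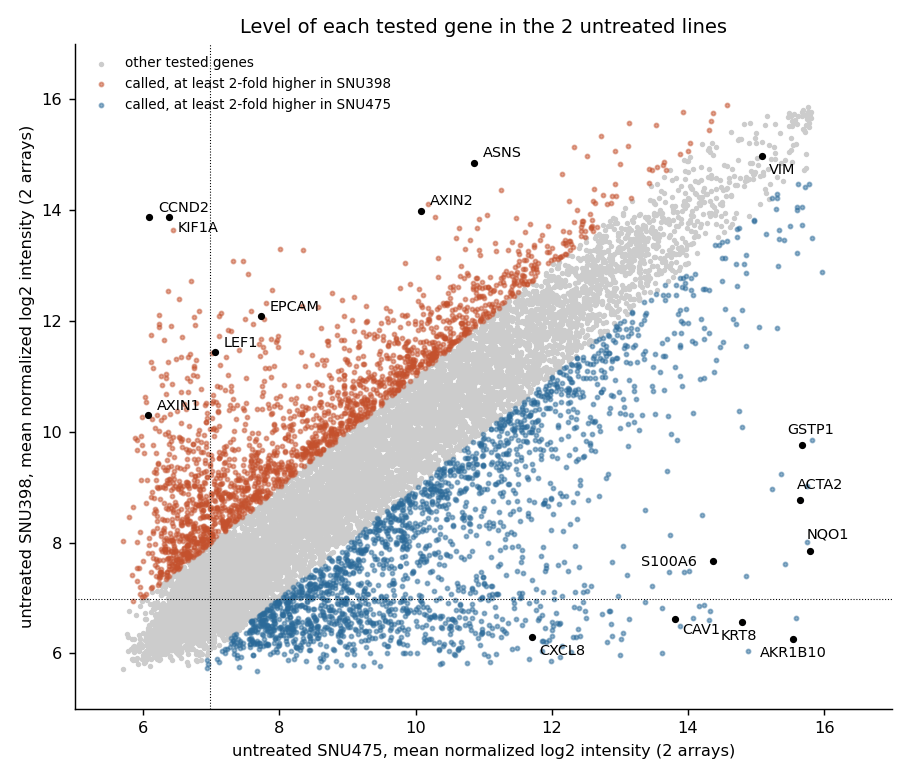
Mean log2 level of each tested gene in untreated SNU475 (horizontal axis) and untreated SNU398 (vertical axis), 2 arrays each. Coloured points are the 3917 genes called and at least 2-fold different, dotted lines mark the background threshold of 6.97, and VIM lies close to the diagonal while KRT8, AKR1B10 and CCND2 lie at the edges.

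The genes furthest above in SNU475 were detoxifying reductases, contractile actins, a keratin and surface proteins. AKR1B10, an aldo-keto reductase that reduces retinal and other carbonyls, read 6.29 and 6.24 in SNU398 and 15.53 and 15.55 in SNU475, at least 378-fold higher. AKR1C2, a steroid reductase of the same superfamily, read 6.64 and 6.65 against 15.62 and 15.56, at least 392-fold. NQO1, the quinone reductase, read 7.90 and 7.80 against 15.79 and 15.79, a 245-fold excess. These 3 genes were near the top of the scale in SNU475, and the first 2 were not above background in SNU398. AKR1C4 (224-fold), AKR1C3 (212-fold) and AKR1B15 (at least 137-fold) were in the same group. The AKR1C genes are near-identical and may share signal: the 3 other kept probes of AKR1C2 differed by -1.62, -1.97 and, not above background in either line, -0.59, and another probe of AKR1C4, not above background in either line, by -0.28. Smooth muscle actins followed, ACTG2 at least 239-fold and ACTA2 117-fold higher. KRT8, the type II keratin of simple epithelia, read 6.45 and 6.67 in SNU398 and 14.80 and 14.79 in SNU475, at least 226-fold. CD24, a surface mucin used as a progenitor marker, was 174-fold higher. TGFBI, a matrix protein induced by TGF-beta, was at least 162-fold higher, and TM4SF1, a tetraspan membrane protein, at least 153-fold. IGFBP5, which binds insulin-like growth factors, was at least 145-fold higher. SPANXA1 (at least 120-fold) and SPANXA2 (at least 162-fold), testis genes with near-identical copies, complete the 15.

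In SNU398 the leading genes were a cyclin, a neuronal motor, secreted peptides and developmental regulators. CCND2, cyclin D2, which drives cells from G1 into S phase, read 14.01 and 13.74 in SNU398 and 5.97 and 6.21 in SNU475, at least 119-fold higher. KIF1A, a kinesin that carries synaptic vesicle precursors, read 13.97 and 13.77 against 6.62 and 6.12, also at least 119-fold. GSTO2, an omega-class glutathione transferase, read 13.60 and 13.68 against 6.33 and 6.55, at least 101-fold. None of the 3 was above background in SNU475. Secreted peptides followed. GCG, the glucagon precursor, was at least 54.0-fold higher, VGF, a neuroendocrine granule protein, 54.0-fold, and NPW, neuropeptide W, 48.7-fold. A2M, a plasma protease inhibitor, was at least 47.4-fold higher in SNU398 and was higher still in HepG2 (14.5). Among developmental regulators, DLX5, a homeobox factor, was 39.2-fold higher, HEY2, a Notch-responsive repressor, at least 34.4-fold, and EFNB2, a membrane ligand of Eph receptors, at least 34.9-fold. The fibrillar collagen gene COL11A1 (at least 43.2-fold), the microtubule regulator STMN3 (39.7-fold), the surface peptidase MME (at least 36.9-fold), the fatty acid elongase ELOVL4 (31.9-fold) and the kinase MATK (at least 31.4-fold) complete the 15. COL11A1 has 2 other kept probes, at 3.45 and, below background, at -0.20, and MATK has 2, at 1.87 and -0.11. A second CCND2 probe differed by 5.81. Of the 111 genes picked by the naming rule that had another kept probe above background in either line, 101 had all such probes in the direction of the probe used. Of the 139 probes, 96 gave a smaller difference in the same direction, among them those of NQO1 (-4.58), MGST1 (-4.93 and -1.43), CXCL8 (-1.88), DKK3 (-1.12) and LOXL1 (-0.86). Non-overlapping arrays were required of the 30 genes by the naming rule and were found for 12081 of the tested genes (79.0%). All 30 kept their direction between the lines at day 3.

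**Figure D2:**
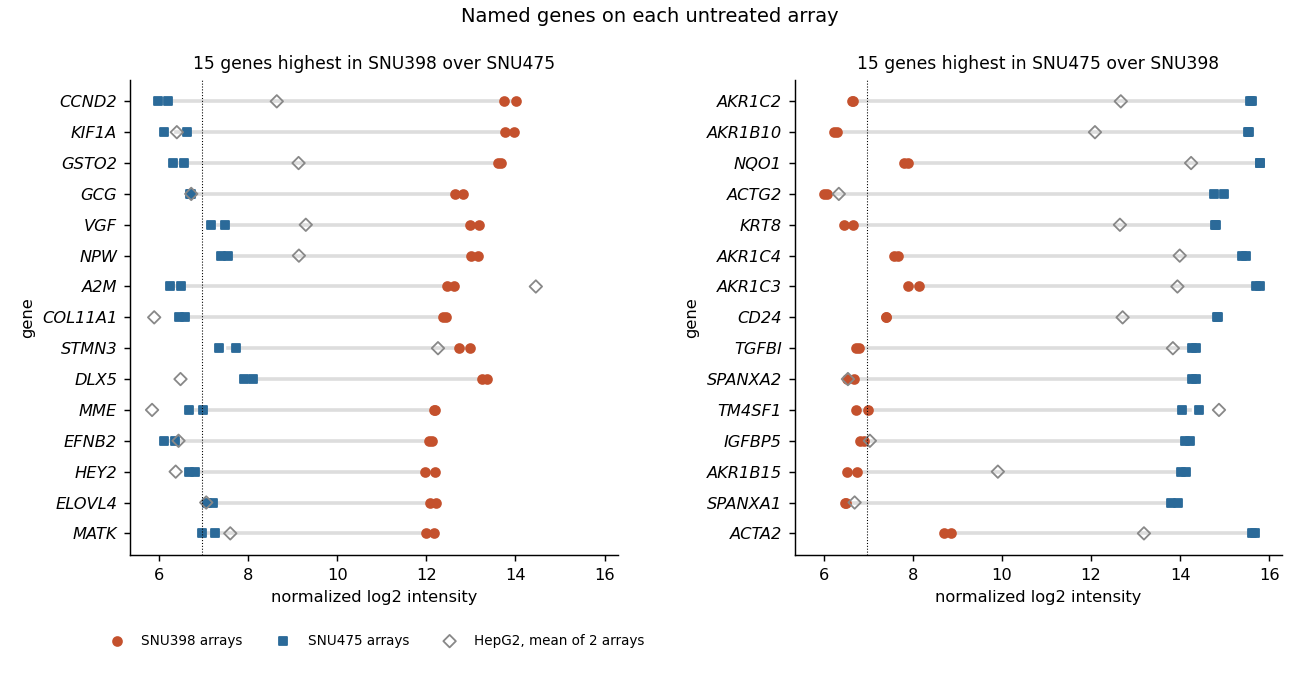
Log2 level on each array of the 15 genes with the largest excess in SNU398 and the 15 with the largest excess in SNU475. Circles are SNU398 arrays, squares SNU475 arrays, diamonds the mean of the 2 HepG2 arrays and the dotted line the background threshold of 6.97. The 2 arrays of a line lie close together, and HepG2 lies nearer to SNU475 for the AKR1C genes, NQO1 and KRT8.

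Glutathione and NRF2 genes stood higher in SNU475 as a group. NRF2 binds antioxidant response elements in the promoters of detoxifying genes. Of 25 members tested, 18 were called higher in SNU475 and 3 higher in SNU398, and the 2-fold calls were 16 and 2, which is 72% of the members against 25.6% of all genes. The list median was -2.63 against 0.03 over all genes. GSTP1, the pi-class glutathione transferase, read 9.82 and 9.70 in SNU398 and 15.68 and 15.66 in SNU475, a 59.9-fold excess. MGST1, the microsomal transferase, read 5.98 and 5.98 against 13.03 and 12.96, at least 64.9-fold. ABCC3, a conjugate exporter, was 30.5-fold higher and GSTM2, a mu-class transferase, 21.0-fold. TXNRD1, thioredoxin reductase, was 9.87-fold higher. The exceptions were GSTO1 (2.16-fold higher in SNU398), HMOX1, haem oxygenase (2.13-fold), and SLC7A11, the cystine carrier (1.43-fold, not called after median scaling). NFE2L2, which encodes NRF2, read 11.08 and 10.90 against 11.22 and 11.26 and did not pass the test (difference -0.24 ± 0.16, adjusted p = 0.193). KEAP1, its inhibitor, read 10.39 and 10.20 against 9.52 and 9.66, 1.63-fold higher in SNU398. The transcripts of the factor and its inhibitor thus differed far less than those of the target genes.

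The antioxidant response element core, TGACNNNGC on either strand, was searched in the 250 bases before the first RefSeq start of each gene (GRCh38.p14). It was present in 1452 of 11969 promoters that matched a tested gene (12.1%) and in 7 of the 20 list members with a promoter sequence. These 7 were GSTO1, GPX2, GCLM, GSTM1, TXNRD1, ME1 and GSTP1, and GSTO1 is among the exceptions that were higher in SNU398. The largest differences among the 20 were those of AKR1C2 (-8.94), NQO1 (-7.94), AKR1C3 (-7.73) and MGST1 (-7.02), which held no match in this window. A match describes the letters and does not show binding. The promoters of 4 genes that were higher in SNU475 are shown 5′ to 3′ on the gene's strand with the match in capitals. They were chosen after their values were seen, to show where the element lies in genes of this group. The match begins 66 bases before the start in GSTP1 (chr11:67583562-67583811, plus strand), 99 in TXNRD1 (chr12:104215529-104215778, plus strand), 137 in ME1 (chr6:83431052-83431301, minus strand) and 34 in GCLM (chr1:93909431-93909680, minus strand), where it is read on the opposite strand.
GSTP1: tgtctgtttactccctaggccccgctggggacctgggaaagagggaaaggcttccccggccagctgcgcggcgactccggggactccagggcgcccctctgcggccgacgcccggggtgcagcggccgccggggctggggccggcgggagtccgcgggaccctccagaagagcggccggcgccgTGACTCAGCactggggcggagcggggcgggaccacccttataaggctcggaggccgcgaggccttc
TXNRD1: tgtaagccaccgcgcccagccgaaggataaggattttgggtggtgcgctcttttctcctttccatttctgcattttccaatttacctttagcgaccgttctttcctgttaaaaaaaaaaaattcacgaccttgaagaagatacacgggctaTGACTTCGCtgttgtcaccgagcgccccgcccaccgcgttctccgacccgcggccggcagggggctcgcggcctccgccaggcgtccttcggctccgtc
ME1: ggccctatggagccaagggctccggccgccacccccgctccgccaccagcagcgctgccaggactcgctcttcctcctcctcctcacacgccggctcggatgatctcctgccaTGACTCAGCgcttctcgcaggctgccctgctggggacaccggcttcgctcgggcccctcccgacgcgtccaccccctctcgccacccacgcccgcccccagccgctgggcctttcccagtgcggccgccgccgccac
GCLM: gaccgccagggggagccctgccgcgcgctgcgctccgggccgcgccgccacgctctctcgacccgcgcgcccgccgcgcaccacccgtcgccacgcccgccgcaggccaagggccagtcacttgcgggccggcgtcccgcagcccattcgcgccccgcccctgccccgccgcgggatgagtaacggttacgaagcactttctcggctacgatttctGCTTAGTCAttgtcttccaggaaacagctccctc
Beside these sequences, ME1, the cytosolic malic enzyme, differed by -3.55 and GCLM, the regulatory subunit of glutamate-cysteine ligase, by -2.01.

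YAP and TGF-beta responsive genes were also higher in SNU475. Of 21 tested, 18 were called higher in SNU475 and none in SNU398, 16 of the 18 by at least 2-fold (76.2% of members against 25.6%), with a median of -1.96. CCN2, connective tissue growth factor, read 9.19 and 9.29 in SNU398 and 15.42 and 15.30 in SNU475, a 69.5-fold excess. CCN1, its relative, read 10.27 and 10.49 against 14.78 and 14.72, 20.7-fold. Both lines thus carried these 2 targets above background at unequal levels. ANKRD1, another YAP target, was at least 19.7-fold higher, the TGF-beta receptor TGFBR2 at least 17.6-fold and the pseudoreceptor BAMBI 51.9-fold. TGFBR2 read 6.29 and 6.39 in SNU398, not above background. YAP1 itself differed by -0.47, a call lost without the first SNU398 array or the second SNU475 array and at day 3 (-0.06). The list's direction held within 1 deposited set for 14 members, called with the same sign at day 3, while the differences of ID2 and ID3, targets of BMP signalling, were 0.41 and -0.30 there against -1.39 and -1.96 untreated. CAV1, caveolin-1, which was named after its values were seen, read 6.49 and 6.74 in SNU398 and 13.77 and 13.85 in SNU475, at least 114-fold higher.

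Contractile, matrix and adhesion genes leaned to the same side, with exceptions. Mesenchymal genes were split 16 higher in SNU475 and 7 higher in SNU398 of 28 tested, 16 and 4 by at least 2-fold (71.4% against 25.6%), with a median of -1.18. TAGLN, an actin-binding protein of smooth muscle, averaged 8.97 in SNU398 and 15.23 in SNU475, a 76.4-fold excess. SPARC, a matricellular protein, was at least 32.7-fold higher in SNU475, CALD1, caldesmon, 10.7-fold, and the repressor SNAI2 at least 8.57-fold. The other direction was taken by TWIST1, a factor that drives epithelial-mesenchymal transition, which read 13.33 and 13.25 in SNU398 and 11.37 and 11.34 in SNU475 (3.83-fold higher in SNU398). PRRX1, a mesodermal homeobox factor, was at least 6.72-fold higher in SNU398, though a second probe differed by 0.20, and FAP, a surface protease of activated fibroblasts, was 3.72-fold higher. MME, one of the 15 genes leading in SNU398, was at least 36.9-fold higher there. Other probes of TAGLN differed by -0.76 and -5.52 and another of SNAI2 by -4.98.

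Collagens were called higher in SNU475 for 17 of 23 genes and higher in SNU398 for 2, with 14 and 1 by at least 2-fold (65.2% against 25.6%). COL5A1 read 7.09 and 7.35 in SNU398 and 13.59 and 13.35 in SNU475, a 76.1-fold excess, COL1A1 was 17.3-fold higher and COL4A1 15.9-fold. COL11A1, one of the 15 genes leading in SNU398, was the 1 collagen at least 2-fold higher there. Matrix enzymes and inhibitors divided 19 to 5 of 26, 12 and 1 by at least 2-fold (50% against 25.6%), with the protease inhibitor SERPINE2 28.5-fold higher in SNU475, the crosslinking enzyme LOXL1 at least 8.67-fold and the urokinase PLAU at least 7.67-fold. MMP10, a stromelysin, was at least 1.66-fold higher in SNU398. Integrins were less one-sided, 8 higher in SNU475 and 4 in SNU398 of 18, 5 and 1 by at least 2-fold (33.3%). ITGA3, the laminin-binding alpha subunit, was at least 34.4-fold higher in SNU475 and the fibronectin-binding ITGA5 9.06-fold, whereas the collagen-binding ITGA1 was 5.42-fold higher in SNU398.

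Most tested genes of the S100 family, small calcium-binding proteins, were higher in SNU475. Of 13 tested, 9 were called higher in SNU475 and 2 in SNU398, 7 and 1 by at least 2-fold (61.5% against 25.6%), with a median of -2.45. S100A10, the annexin A2 partner, read 8.99 and 9.05 in SNU398 and 15.76 and 15.72 in SNU475, a 105-fold excess. S100A6, calcyclin, read 7.81 and 7.53 against 14.18 and 14.55, 103-fold. S100A11 was 37.6-fold higher, S100A3 at least 35.5-fold, S100A16 at least 28.5-fold and S100A4, which is also a mesenchymal marker, 21.5-fold. S100A14 (2.05-fold) and S100A9 (1.43-fold) were higher in SNU398, the latter a call lost without the second SNU398 array or the first SNU475 array.

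Epithelial genes did not follow the mesenchymal ones in the opposite sense. Keratins were called higher in SNU475 for 6 of 10 tested and higher in SNU398 for none, 5 by at least 2-fold (50%). KRT80 was at least 60.3-fold higher in SNU475 and KRT19, a biliary and progenitor keratin, at least 32.5-fold. KRT18, the partner of KRT8, read 6.91 and 6.72 against 8.61 and 8.57, at least 3.07-fold, and another probe of it differed by -1.08. Junction and identity genes were mixed, 9 higher in SNU475 and 3 in SNU398 of 18 tested, 7 and 2 by at least 2-fold (50%). ELF3, an epithelial ETS factor, was 16.3-fold higher in SNU475, the tight junction gene CLDN7 at least 9.05-fold and plakoglobin (JUP) 4.67-fold. EPCAM, the epithelial adhesion molecule, went the other way and read 11.93 and 12.24 in SNU398 and 7.71 and 7.75 in SNU475, a 20.4-fold excess in SNU398. SPINT2, an inhibitor of surface serine proteases, read 11.20 and 11.10 against 6.74 and 6.77, at least 18.1-fold. Each line therefore held part of the epithelial list: keratins and ELF3 in SNU475, EPCAM and SPINT2 in SNU398.

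**Figure D3:**
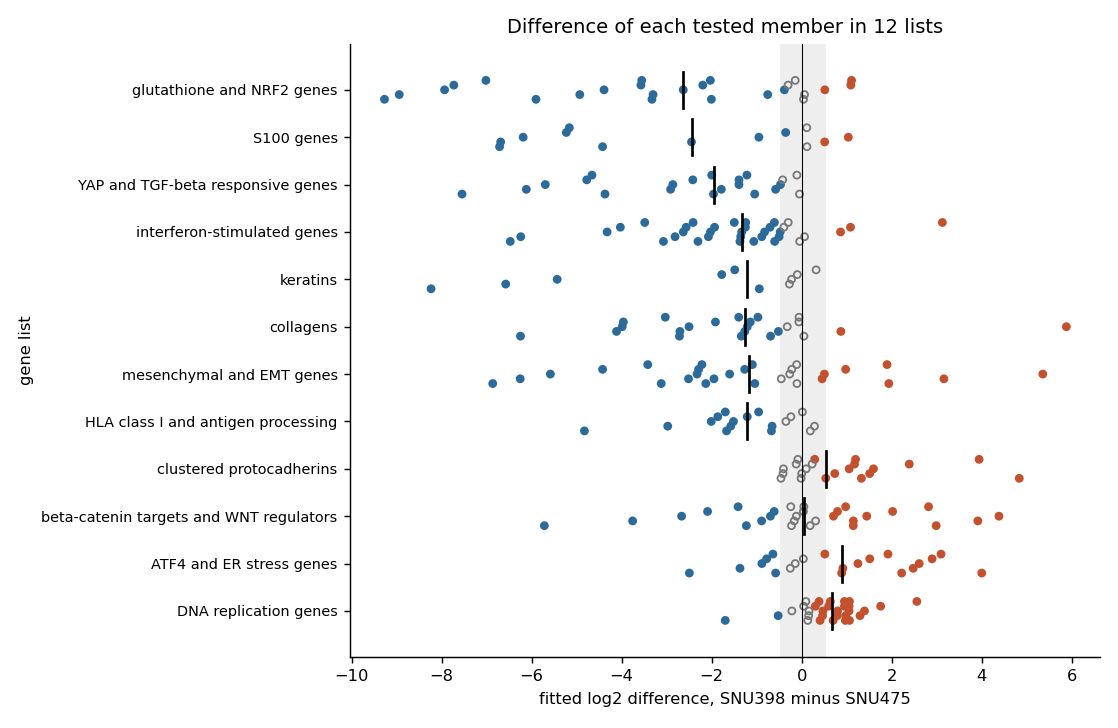
Log2 difference between the lines (SNU398 minus SNU475) of each tested member of 12 gene lists. Filled points were called, open points were not, black bars are list medians and the grey band spans the median absolute difference over all genes, 0.483, on each side of 0. The medians of the NRF2, S100, and YAP and TGF-beta lists lie below the band and that of the ATF4 list above it.

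Interferon-stimulated and antigen presentation genes were higher in SNU475. Of 35 interferon-stimulated genes tested, 28 were called higher in SNU475 and 3 in SNU398, 21 and 2 by at least 2-fold (65.7% against 25.6%), with a median of -1.33. IFITM2, a membrane protein that blocks viral entry, read 7.43 and 7.49 in SNU398 and 14.04 and 13.84 in SNU475, an 89.1-fold excess, and IFITM3 read 7.42 and 7.53 against 13.74 and 13.71, 75.8-fold. The 2 are close relatives and may share signal. GBP1, a guanylate-binding protein, was at least 18.3-fold higher, IFI16, a DNA sensor, 11.2-fold and MX1, an antiviral GTPase, at least 5.21-fold. IFIH1, which encodes the RNA sensor MDA5, was the main exception and read 11.47 and 11.40 in SNU398 and 8.29 and 8.33 in SNU475, 8.73-fold higher in SNU398. USP18, a brake on interferon signalling (2.12-fold), and HERC5, an ISG15 ligase (1.82-fold), were also higher in SNU398, and at day 3 their differences were 0.03 and 0.26. HLA class I and antigen processing genes were called higher in SNU475 for 12 of 17 and in SNU398 for none, 9 by at least 2-fold (52.9%). PSMB8, an immunoproteasome subunit, was at least 27.8-fold higher, although its other probes differed by -4.59, -4.04 and -0.89. HLA-B was 4.03-fold and B2M 3.18-fold higher. Class II genes differed little, 1 of 9 by at least 2-fold, a smaller share than the 25.6% of all genes.

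Inflammatory mediators and immediate early genes were higher in SNU475 too. Of 23 cytokine, chemokine and NF-kB feedback genes, 14 were called higher in SNU475 and 1 in SNU398, 9 and none by at least 2-fold (39.1% against 25.6%). CXCL8, interleukin-8, read 6.30 and 6.28 in SNU398 and 11.59 and 11.82 in SNU475, at least 26.6-fold, IL6 was at least 11.3-fold and CXCL2 at least 10.6-fold higher. None of these 3 was above background in SNU398. Of 25 immediate early genes, 18 were higher in SNU475 and 5 in SNU398, 13 and 3 by at least 2-fold (64%). The stress-responsive IER3 was 26.1-fold higher in SNU475, JUN, an AP-1 subunit, 13.8-fold and the phosphatase DUSP1 9.79-fold. Genes that restrain ERK signalling were found on both sides. SPRY2, a feedback inhibitor, read 12.36 and 12.17 in SNU398 and 8.38 and 8.29 in SNU475 (15.2-fold higher in SNU398), and DUSP6, the ERK phosphatase, read 11.39 and 11.35 against 7.77 and 7.66 (12.6-fold). SPRY4 was 2.24-fold higher in SNU398, while DUSP5, another ERK phosphatase, was 11.3-fold higher in SNU475.

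Growth factor genes, 24 tested, were called higher in SNU475 for 12 and in SNU398 for 8, 10 and 6 by at least 2-fold (66.7%). Receptors fell on both sides. Higher in SNU475 were the collagen receptor DDR1 (9.26-fold), the HGF receptor MET (5.13-fold), the EGF receptor EGFR (4.20-fold) and its ligand HBEGF (7.89-fold). In SNU398 the lymphangiogenic factor VEGFC read 11.37 and 11.03 against 7.19 and 7.06 (16.8-fold). There ERBB3, a partner of ERBB2, was at least 3.31-fold and the FGF19 receptor FGFR4 at least 2.81-fold higher. HGF, the ligand of MET, read 8.07 and 8.02 in SNU398 and 7.03 and 6.66 in SNU475, at least 2.11-fold. MET and its ligand were thus higher in opposite lines.

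WNT pathway genes took both sides. Of 28 tested, 11 were higher in SNU398 and 9 in SNU475, 8 and 6 by at least 2-fold (50% against 25.6%), and the median of 0.04 changed sign in 5 of the alternative settings. AXIN1, the scaffold of the complex that degrades beta-catenin, read 10.43 and 10.16 in SNU398 and 6.32 and 5.82 in SNU475, at least 10.0-fold higher in SNU398 (difference 4.23 ± 0.18), with HepG2 at 10.4. It was not above background in SNU475. AXIN2, a feedback target of beta-catenin, averaged 13.99 against 10.08 (15.1-fold), and LEF1, a nuclear partner of beta-catenin, read 11.49 and 11.39 against 7.04 and 7.06 (20.9-fold). NKD2, a feedback inhibitor, was 7.93-fold and TNFRSF19, a target gene, 7.06-fold higher in SNU398. Secreted inhibitors were found on both sides, WIF1 at least 3.67-fold and SFRP1 2.22-fold higher in SNU398, and DKK3 at least 45.6-fold and DKK1 13.5-fold higher in SNU475. The receptor FZD2 was 6.36-fold and WNT5A, a non-canonical ligand, 4.26-fold higher in SNU475. CTNNB1, beta-catenin itself, differed by -0.61, a call lost without the second SNU475 array. A second LEF1 probe differed by 5.41, and a second AXIN1 probe, not above background in either line, by 0.27.

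The low AXIN1 signal in SNU475 was not shared by its neighbours on chromosome 16. Of the 10 nearest tested genes, 5 on each side, 9 were above background in SNU475, and PDIA2 was above background in neither line. RGS11 was above background in SNU475 (8.04) and not in SNU398 (6.76), and LUC7L, FAM234A, MRPL28 and PGAP6 read between 9.08 and 10.6 in SNU475. These neighbours were looked up after the AXIN1 value was seen.

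Genes of the amino acid and endoplasmic reticulum stress responses took both sides, more of them higher in SNU398. Of 21 tested, 12 were called higher in SNU398 and 6 in SNU475, 9 and 2 by at least 2-fold (52.4% against 25.6%), with a median of 0.89. ASNS, asparagine synthetase, a target of the stress factor ATF4, read 14.91 and 14.80 in SNU398 and 10.75 and 10.96 in SNU475 (limma, adjusted p = 3.6e-22). TRIB3, a pseudokinase induced by ATF4, read 14.48 and 14.23 against 11.30 and 11.22, 8.56-fold. PSAT1 and PHGDH, enzymes of serine synthesis, were 7.45-fold and 6.11-fold higher, and DDIT4, an inhibitor of mTORC1, 5.57-fold. The 6 members higher in SNU475 were VLDLR, a lipoprotein receptor (5.64-fold), DNAJB9, XBP1 and HSPA5, which belong to the chaperone response, SLC7A5, an amino acid carrier, and PPP1R15A, a phosphatase subunit, whose call was lost without the second SNU398 array. At day 3 the lines were closer for several of these: ASNS averaged 13.26 in SNU398 and 10.96 in SNU475, and the difference was 0.63 for TRIB3 against 3.10 untreated, 0.44 for DDIT4 against 2.48 and -0.10 for DDIT3 against 1.51. SNU398 also changed deposited set between the days.

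Most sugar metabolism genes tested were higher in SNU475. Of 27 hypoxia and glycolysis genes, 19 were higher in SNU475 and 4 in SNU398, 14 and 2 by at least 2-fold (59.3% against 25.6%). The glucose carrier SLC2A1 read 8.72 and 8.71 in SNU398 and 11.85 and 11.93 in SNU475 (9.02-fold), while the carrier SLC2A3 read 11.29 and 11.29 against 8.68 and 8.68 (6.12-fold higher in SNU398). The phosphofructokinase PFKP was 5.72-fold and pyruvate kinase PKM 4.12-fold higher in SNU475. LDHB, lactate dehydrogenase B, read 6.71 and 6.50 against 9.44 and 9.66, at least 5.96-fold. Of 24 cholesterol and fatty acid synthesis genes, 12 were higher in SNU398 and 6 in SNU475, 6 and 1 by at least 2-fold (29.2%, close to the 25.6% of all genes), with a median of 0.29. After median scaling the counts were 10 and 6 and the median 0.18. The desaturase SCD (4.42-fold) and HMGCS1, which makes the sterol precursor HMG-CoA (12.59 and 12.51 against 10.48 and 10.62), were among those higher in SNU398, and ACLY, which makes cytosolic acetyl-CoA, was 2.35-fold higher in SNU475. Among 9 metallothioneins, MT1F was 12.5-fold higher in SNU398, though the genes of this family are near-identical and may share signal.

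DNA replication genes were called higher in SNU398 for 22 of 30 and in SNU475 for 2, 8 and 1 by at least 2-fold (30% against 25.6%), with a median of 0.67. The licensing factor CDT1 read 12.31 and 12.05 in SNU398 and 9.63 and 9.62 in SNU475, 5.89-fold higher, and the polymerase epsilon subunit POLE2 was 3.38-fold higher. RRM2, a subunit of ribonucleotide reductase, was 3.25-fold higher in SNU475. Of 30 mitosis genes, 63.3% were called, close to the 60.1% of all genes, and 16.7% by at least 2-fold, below the 25.6%. They were higher in SNU398 for 17 and in SNU475 for 2 (14 and 4 after median scaling), with a median of 0.39. BIRC5, survivin, was 4.47-fold and the spindle checkpoint kinase TTK 3.78-fold higher in SNU398, and the proliferation antigen MKI67 3.05-fold. Growth rates of the cultures were not used here.

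Cell cycle inhibitors and cyclins were mixed apart from a few large differences. CDKN1A, the p21 inhibitor, read 8.76 and 8.70 in SNU398 and 11.79 and 11.69 in SNU475, 8.10-fold higher in SNU475. Cyclin D genes took opposite sides, since CCND2 was above background in SNU398 and not in SNU475 and CCND3 was 3.72-fold higher in SNU475. The kinase gene CDK4 was 3.06-fold higher in SNU398. Targets of p53 were called higher in SNU475 for 10 of 25 and in SNU398 for 8, 7 and 6 by at least 2-fold (52% against 25.6%). The median of 0.03 changed sign in 6 of the alternative settings. Besides CDKN1A, PLK2 (at least 6.87-fold) and the apoptosis effector BAX (4.77-fold) were higher in SNU475, whereas SESN2 (3.78-fold) and the exonuclease AEN (3.34-fold) were higher in SNU398. TP53I3 was 5.59-fold higher in SNU475 by the probe used and differed by 0.23 by another. Among genes often altered in liver cancer, 7 of 16 were called higher in each line, where 60.1% of all genes were called. Beside AXIN1, the mTORC1 inhibitor TSC2 was at least 3.20-fold higher in SNU475 (6.63 and 6.75 against 8.45 and 8.86). TSC1 was 3.34-fold higher in SNU475, but its other probes differed by 0.19 and 0.67. Further probes of TSC2, CTNNB1, ERBB3, PFKP and CBX2, none above background in either line, differed by 0.02, -0.04, 0.14, 0.03 and 0.15. CTNNB1, ERBB3 and CBX2 each had another probe that was above background, and these differed by -0.65, 0.42 and 1.32, in the direction of the probe used.

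**Figure D4:**
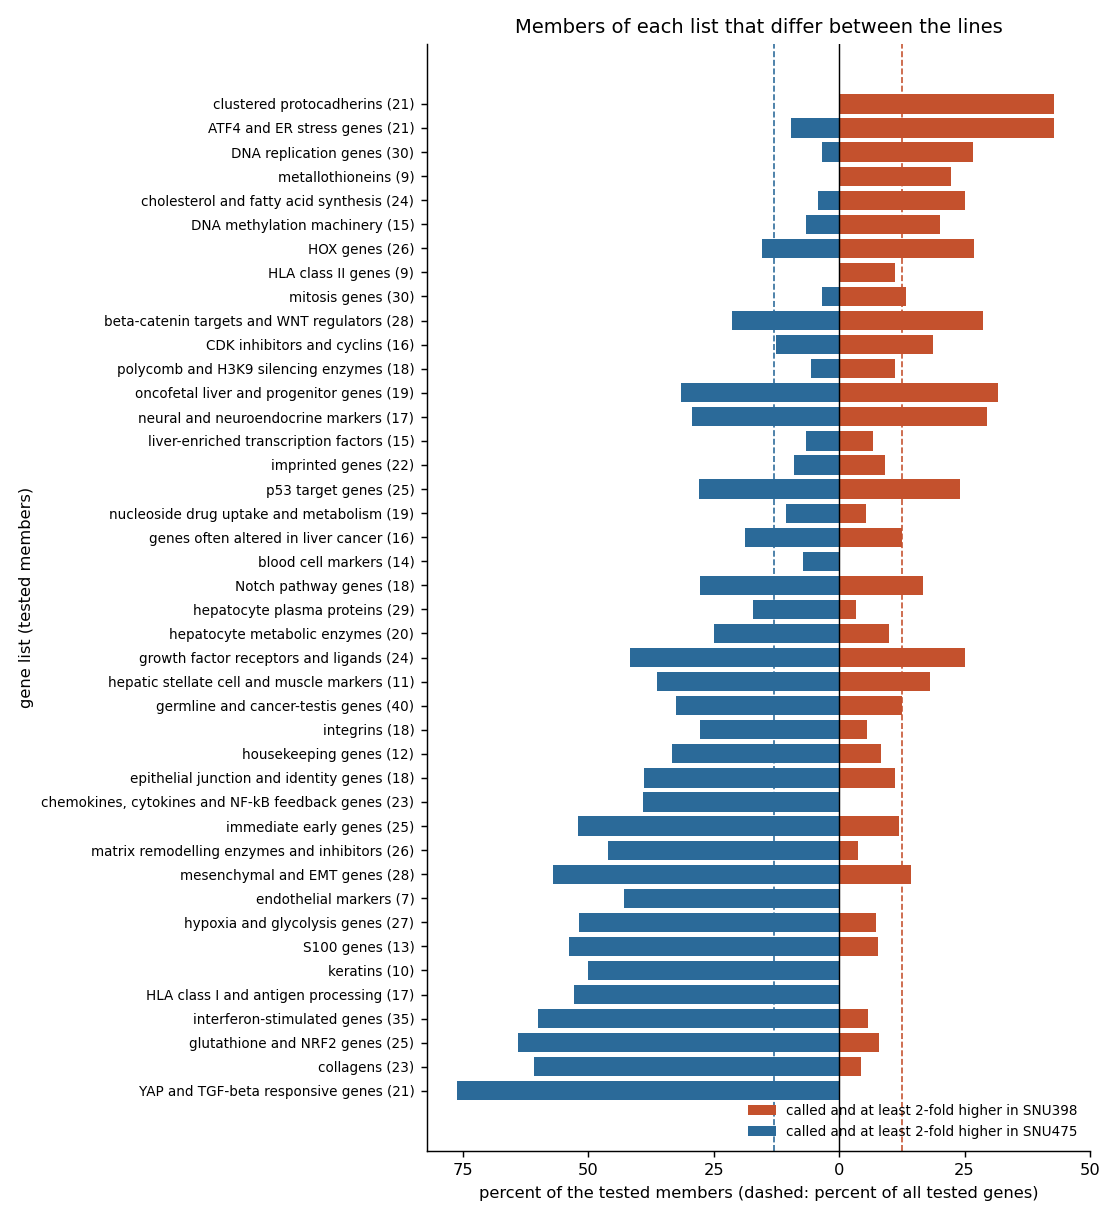
Percent of the tested members of each gene list that were called and at least 2-fold higher in SNU398 or in SNU475. Dashed lines mark the 12.6% and 13.0% of all tested genes, and the NRF2, YAP and TGF-beta, interferon and collagen lists reach furthest on the SNU475 side while the protocadherin and ATF4 lists reach furthest on the SNU398 side.

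Many hepatocyte genes were undetected in both lines. Genes were tested where at least 1 of the 17 groups, HepG2 included, was above background, so the shares undetected depend partly on that filter. FOXA2, for instance, averaged 6.40 in SNU398, 6.24 in SNU475 and 13.17 in HepG2. Above background in neither line were 16 of 29 plasma protein genes tested, 11 of 20 metabolic enzymes and 7 of 15 liver-enriched transcription factors, beside 2266 of all 15297 tested genes. APOE, apolipoprotein E, was the main exception and read 10.46 and 10.36 in SNU398 and 7.83 and 7.52 in SNU475, 6.69-fold higher in SNU398. Of the liver factors, CEBPA was 4.77-fold higher in SNU398 and FOXA1 2.81-fold higher in SNU475. Enzymes higher in SNU475 included the fatty acid carrier SLC27A2 (6.66-fold) and CYP27A1, a bile acid enzyme (4.08-fold), and those higher in SNU398 the tryptophan oxygenase TDO2 (3.07-fold). The lines carried different oncofetal and progenitor genes. GPC3, glypican-3, a surface antigen of liver cancer, read 10.06 and 9.94 in SNU398 and 6.21 and 6.51 in SNU475, at least 8.15-fold higher in SNU398, and SALL4, a fetal stem cell factor, was at least 5.70-fold higher there. PROM1, the CD133 antigen, read 6.24 and 6.34 in SNU398 and 11.19 and 11.31 in SNU475, at least 19.3-fold higher in SNU475, and SOX9, a biliary factor, was at least 5.08-fold higher. Neither PROM1 nor SOX9 was above background in SNU398, and neither GPC3 nor SALL4 in SNU475. Of the 19 genes 8 were higher in each line, 6 and 6 by at least 2-fold (63.2%).

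Germline genes, most of which adult tissues outside the germline rarely express, and developmental genes separated the lines as well. Of 40 germline genes tested, 21 were called higher in SNU475 and 5 in SNU398, 13 and 5 by at least 2-fold (45% against 25.6%). MAGEA10 read 6.26 and 6.17 in SNU398 and 12.83 and 12.77 in SNU475, at least 56.8-fold, SPANXB1 was 91.9-fold and CTAG2 at least 22.0-fold higher. A second probe of MAGEA10 differed by -1.24 and a second of CTAG2 by -0.94. GTSF1, a factor of the piRNA pathway, was at least 29.6-fold higher in SNU475. On the SNU398 side the helicase DDX43 was at least 14.6-fold and PRAME 5.22-fold higher, and GAGE12C was bright in both lines (15.60 and 15.62 against 14.18 and 14.50). MAGEA, SPANX and GAGE copies are near-identical and probes may not tell them apart. Clustered protocadherins, adhesion molecules of neurons, were called higher in SNU398 for 12 of 21 and in SNU475 for none, 9 by at least 2-fold (42.9%). PCDHB2 read 11.42 and 11.21 against 6.46 and 6.50, at least 20.3-fold, and PCDHB5 was at least 7.32-fold higher. HOX genes were mixed, 12 higher in SNU398 and 9 in SNU475 of 26, beside the 60.1% of all genes called. HOXB5 was 13.0-fold higher in SNU475 and HOXD13 at least 5.77-fold higher in SNU398. Among imprinted genes PEG3 was at least 13.4-fold higher in SNU398 (10.80 and 10.64 against 6.73 and 6.57). Of 22 imprinted genes, 4 differed by at least 2-fold, a smaller share than the 25.6% of all genes.

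Neural and Notch genes also took both sides. Of 17 neural and neuroendocrine markers, 6 were higher in each line, 5 and 5 by at least 2-fold (58.8%). The granule protein genes CHGB (at least 9.75-fold) and CHGA (3.42-fold) and the vesicle protein gene SYP (at least 2.93-fold) were higher in SNU398. The filament genes NEFL (9.74-fold) and NES (at least 5.13-fold) were higher in SNU475. In the Notch pathway the ligand JAG1 averaged 6.86 in SNU398, not above background, and 9.56 in SNU475, and the receptors NOTCH1 (2.86-fold) and NOTCH2 (2.93-fold) and the target HES1 (3.19-fold) were also higher in SNU475. The ligands DLL1 (at least 3.26-fold) and DLL3 (2.85-fold) and the target HEY2 were higher in SNU398.

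Of the genes listed for the drug, DNMT1 did not differ beyond the spread and CDA, which inactivates decitabine, did. SGI-110 carries decitabine, a cytidine analogue that is activated by deoxycytidine kinase, inactivated by cytidine deaminase and traps DNMT1 on DNA. DNMT1 read 13.22 and 13.35 in SNU398 and 13.51 and 13.27 in SNU475, overlapping arrays with a difference of -0.10 ± 0.13 (limma, adjusted p = 0.542); at day 3 the difference was 0.61 (adjusted p = 0.000244). DCK, the activating kinase, read 10.49 and 10.53 against 10.13 and 10.13, a difference of 0.38 ± 0.14 that was no longer called when any 1 of the arrays was left out, after median scaling (0.21), after cyclic loess (0.30), on the deposited scale (0.26) or at day 3 (0.05), and turned to -0.09 when the probes of the gene were averaged. CDA, the deaminase, was the largest difference in the list: it read 6.37 and 6.42 in SNU398, not above background, and 9.45 and 9.39 in SNU475, at least 5.46-fold higher. Of 19 uptake and metabolism genes, 8 were higher in SNU398 and 6 in SNU475, 1 and 2 by at least 2-fold (15.8%, below the 25.6% of all genes). In the methylation machinery, 6 of 15 were higher in each line, 3 and 1 by at least 2-fold, close to the 25.6% of all genes. The remodeller HELLS (2.28-fold), UHRF2 (2.24-fold) and the demethylating enzyme TET1 (2.23-fold) were higher in SNU398. UHRF1, the DNMT1 cofactor, was 1.97-fold and DNMT3B, another methyltransferase, 1.51-fold higher there. Other probes of DNMT3B differed by 0.81, 0.55 and -0.46. Among polycomb and H3K9 silencing genes, CBX1 (4.36-fold) and CBX2 (4.03-fold) were higher in SNU398.

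Some of the genes silent in 1 line were neighbours. Tested genes were ordered along the chromosomes, and runs were sought of at least 3 adjacent genes that were all called, at least 2-fold lower in 1 line and not above background in it. Genes that met this singly made up 3.63% of 15283 ordered genes for SNU475 and 5.12% for SNU398. There were 5 runs low in SNU475 and 11 low in SNU398, found after the values were seen, and many hold related genes that arose by duplication. The longest run low in SNU475 held 7 genes from PCDHB2 to PCDHB8 on chromosome 5, and another held IRX4, IRX2 and IRX2-DT on the same chromosome. The others were GABRA5, GABRG3 and OCA2 on chromosome 15, TNNT1, TNNI3 and DNAAF3 on chromosome 19, and MIR216A, LOC100129434 and CCDC85A on chromosome 2. Low in SNU398 were 7 genes of the MAGEA and CSAG cluster and 4 SPANX genes on chromosome X, KRT4, KRT8 and KRT18 on chromosome 12, GBP3, GBP1 and GBP2 on chromosome 1, CASP4, CASP1 and CARD16 on chromosome 11, and TM4SF18, TM4SF1, TM4SF4 and WWTR1 on chromosome 3. The remaining runs low in SNU398 were TES, CAV2 and CAV1 on chromosome 7, DKK3, MICAL2 and PARVA on chromosome 11, MTARC2, MTARC1 and HLX on chromosome 1, and MGP, ERP27 and ARHGDIB and also TNFRSF1A, SCNN1A and LTBR on chromosome 12. The last run holds 2 cytokine receptors, TNFRSF1A (averages of 7.11 and 11.87) and LTBR (averages of 6.52 and 11.56). Whether DNA copy number or methylation differs at these places was not tested.

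Markers of other cell types were detected in part. Of 14 blood cell markers tested, 9 were above background in neither line, as were 3 of 7 endothelial and 4 of 11 hepatic stellate and muscle markers. CD14, the lipopolysaccharide coreceptor of monocytes, was the 1 blood marker at least 2-fold different, at 6.99 and 7.26 in SNU398 and 12.51 and 12.52 in SNU475. Of the 7 endothelial markers 3 were called, a smaller share than the 60.1% of all genes. All 3 were higher in SNU475, among them TEK at least 4.56-fold. Stellate and muscle markers, which include ACTA2 and TAGLN, were called for 8 of 11, beside 60.1% of all genes. CNN1, calponin, was at least 13.8-fold higher in SNU475 and LHX2, a homeobox factor, at least 20.7-fold higher in SNU398. In bulk RNA of a culture, fewer cells that express a gene and less RNA per cell cannot be told apart. Reference genes were unequal too. ACTB was 2.47-fold and GAPDH 1.93-fold higher in SNU475 and RPL13A 3.40-fold higher in SNU398, all with non-overlapping arrays, and 5 of 12 differed by at least 2-fold (41.7%).

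The day 3 arrays, which lie in 1 deposited set, compare the lines after treatment had begun. They are other arrays than the untreated ones. Both comparisons come from the same fit, with the same normalisation, probes and estimate of the spread, so they are not independent tests. At day 3, 9347 genes were called (61.1%), and 3844 by at least 2-fold (25.1%). Of the 3917 genes that differed at least 2-fold untreated, 3714 were called with the same sign at day 3, 2872 of these by at least 2-fold, while 187 were not called and 16 were called with the opposite sign. The differences correlated across these 3917 genes with r = 0.960, as a description, since the genes were chosen for large differences and share the arrays. LDHB turned from -2.95 ± 0.21 untreated to 0.52 at day 3. It averaged 6.60 in untreated SNU398, 9.75 at day 3 and 11.60 at day 24, while SNU475 averaged 9.55 untreated and 9.24 at day 3. NQO1 averaged 7.85 in untreated SNU398, 10.49 at day 3 and 11.51 at day 24, so that its difference narrowed from -7.94 to -5.18. GTSF1 went from 6.70 to 8.99 and 10.85 on the same days, and GSTP1 from 9.76 to 11.05 and 12.06. Untreated SNU398 lies in another deposited set than its treated days, so set and treatment cannot be told apart between untreated and treated arrays. Days 3 and 24 of SNU398 lie in the same set. SPINT2, low in SNU475, averaged 6.75 untreated and 8.47 at day 3 there. RRM2 differed by -1.70 untreated and 0.14 at day 3. Other genes called in opposite directions on the 2 days include CCND1 (-0.51 and 0.31), TFRC (-1.03 and 0.58) and IDH1 (0.72 and -0.63).

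**Figure D5:**
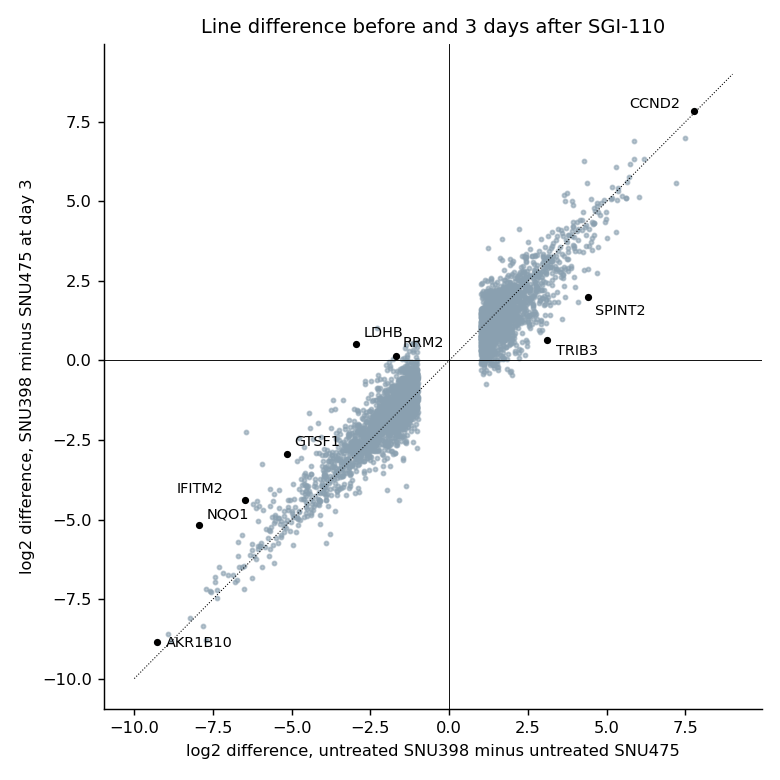
Log2 difference between the lines (SNU398 minus SNU475) for the 3917 genes called and at least 2-fold different, untreated on the horizontal axis and at day 3 on the vertical axis. The dotted line marks equality, and LDHB lies across 0 while NQO1, GTSF1, IFITM2 and TRIB3 lie closer to 0 at day 3 than untreated.

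The promoters of LDHB and NQO1, 2 genes whose low level in SNU398 was followed by higher levels on treated days, are shown with each CG pair, the site of DNA methylation, in capitals. They were chosen after their values were seen. LDHB lies at chr12:21657843-21658092 and NQO1 at chr16:69726561-69726810, both on the minus strand of GRCh38.p14.
LDHB: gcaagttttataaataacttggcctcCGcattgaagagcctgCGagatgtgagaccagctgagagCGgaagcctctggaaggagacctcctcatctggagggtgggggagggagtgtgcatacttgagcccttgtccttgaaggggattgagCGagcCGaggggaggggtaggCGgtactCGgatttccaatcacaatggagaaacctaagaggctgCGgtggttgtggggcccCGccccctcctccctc
NQO1: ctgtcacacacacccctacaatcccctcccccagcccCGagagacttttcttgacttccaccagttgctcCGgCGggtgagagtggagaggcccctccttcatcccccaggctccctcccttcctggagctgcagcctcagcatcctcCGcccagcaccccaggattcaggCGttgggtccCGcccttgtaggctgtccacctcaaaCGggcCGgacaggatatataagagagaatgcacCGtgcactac
Each of these promoters holds 9 CG pairs in 250 bases, against a median of 19 and quartiles of 10 and 27 over the 11969 promoters matched to tested genes. Methylation at these positions was not analysed here. The treated SNU398 arrays lie in another deposited set than the untreated ones. NQO1 in SNU398 read 7.90 and 7.80 before treatment, and neither promoter holds the antioxidant response core in this window, which says only that these letters are absent from it.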

How the data were processed

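Total RNA was extracted with Trizol and RNeasy columns, treated with DNase I, and labelled as biotinylated cRNA with the Ambion MessageAmp kit, per the labels' protocols. The measurements are linear intensities of 47230 probes on 34 arrays, as the authors deposited them; the authors' normalisation and software are not given in the sources used here. A further 72 deposited columns named by array barcode were not used, because no label ties them to samples. Signal over background and the number of arrays limit the precision.

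Background was corrected with limma's normexp model (offset 50), and the 34 arrays were quantile normalised together on the log2 scale. The background threshold, 6.97, lies 1.645 spreads (0.298 each) above the mode of the averaged intensity distribution (6.48). Probes above it on both arrays of at least 1 of 17 groups were kept. Of the deposited probes, 30113 have 1 gene symbol, 8 several and 17109 none, and 30074 matched RefSeq (GRCh38.p14) names. Each gene was represented by the kept probe with the highest mean, which gave 15297 tested genes, 4335 of them with further kept probes.

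One linear model with a mean per group was fitted in limma 3.58.1 (R 4.3.3; 17 residual and 10.9 prior degrees of freedom). Its moderated test, two-sided, was adjusted by Benjamini-Hochberg over all tested genes. The tests were tested on simulated data. The 2 replicate numbers of the lines were not used to pair the samples: differences between replicates 1 and 2 correlated at 0.046 between the lines. This value cannot show whether cultures or processing were shared.

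The comparison, its 42 gene lists and the rule for naming genes were chosen with earlier results of these data known. Named were the 15 called genes with the largest excess in each line, leaving out uncharacterised loci and Y-linked genes, up to 6 called members of each list per direction, and members that define a list. Genes in runs of neighbours, the neighbours of AXIN1, CAV1, SFRP1 and the promoters shown were chosen after their values were seen. Promoter sequences come from RefSeq (GRCh38.p14). Settings that were varied are background correction, normalisation, filter, probe choice, arrays fitted, replicates and the deposited set.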

Additional observations from a re-analysis of the deposited data

Results flagged for a closer look

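The effect of line had opposite directions untreated and at day 3 in some of the genes named above, with every array of 1 line on 1 side untreated and on the other side at day 3. The change between the days was not tested for any of them. Day 3 follows treatment, and SNU398 also changed deposited set between the days. LDHB differed by -2.95 untreated and by 0.52 at day 3. CCND1 differed by -0.51 and 0.31, TFRC by -1.03 and 0.58, IDH1 by 0.72 and -0.63, and ID2 by -1.39 and 0.41.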

How the results depend on the processing

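The count of called genes, 9189, ranged from 9000 with an offset of 16 to 9589 on the deposited scale over the alternatives of background correction, normalisation, probe choice, arrays fitted and prior, and was 9347 on the day 3 arrays. It was 6027 of 8588 when a gene had to be above background on all 34 arrays, with 2763 higher in SNU475 and 2085 at least 2-fold different, since this filter removes every gene silent in 1 line. With a replicate block it was 9197, and 3917 genes again differed at least 2-fold, so the block changed no count by over 1.5 times. Leaving out 1 array gave 8210 to 8384 calls, and 3965 to 4021 of at least 2-fold; the lone array of a line is then assumed to vary like the other groups. No scaling moved the median difference over all genes by more than 0.1.

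Among 267 genes named, DCK, YAP1, CTNNB1, PPP1R15A and S100A9 lost their call and kept their direction when 1 array was left out. Directions turned for TSC1 in the 4 arrays alone (0.67, another probe), for DCK with probes averaged (-0.0899), and at day 3 for LDHB (0.52), RRM2 (0.14), ID2 (0.41), DDIT3 (-0.10), CCND1 (0.31), TFRC (0.58) and IDH1 (-0.63); the cause of the day 3 values was not tested. The list medians of NRF2 (-3.34 to -2.02), YAP and TGF-beta (-2.21 to -1.55), interferon-stimulated (-1.53 to -0.65) and ATF4 genes (0.44 to 0.92) kept their sign in all 18 settings. That of beta-catenin genes changed sign in 5. Further medians changed sign too, among them those of metabolic enzymes (7 settings), p53 targets (6), the methylation machinery (6) and oncofetal genes (5).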

Other observations

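The SNU475 arrays of day 56 carried several genes that marked SNU398. CCND2, not above background in untreated SNU475 (5.97 and 6.21), read 10.80 and 10.74 at day 56. MME read 12.28 and 12.31 there against 6.98 and 6.66 untreated, and HEY2 9.76 and 9.75 against 6.68 and 6.81. A2M read 10.23 and 10.06 against 6.24 and 6.50. EFNB2 (6.02 and 5.90) and GCG (6.19 and 6.38), equally marked in SNU398, were not above background at day 56. KRT8, at 14.80 and 14.79 in untreated SNU475, read 11.74 and 11.88 at day 56. Arrays of SNU475 from day 10 on lie in a deposited set of their own. Set and day therefore cannot be told apart between the untreated and these later arrays. Days 31 and 56 share that set. On these days CCND2 averaged 6.01 and 10.77, HEY2 6.55 and 9.76, and MME 6.93 and 12.29. A2M averaged 6.91 and 10.14, and KRT8 14.17 and 11.81. These genes were picked after their values were seen, and the reason for the values was not tested.

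CYBA, the membrane subunit of the phagocyte oxidase, read 6.88 and 6.96 in untreated SNU398 and 13.39 and 13.34 in SNU475, at least 83.8-fold higher, and its difference was -6.44 untreated and -2.26 at day 3.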
